A study of Mus musculus with 76 samples.

Results

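The livers of female house mice that carried a t haplotype (+/t) were compared with those of their +/+ sisters, in 6 sibling pairs numbered 1, 2, 3, 4, 5 and 7 in the labels. The 12 libraries were chosen by the tissue, sex and genotype labels, out of 76 libraries of brain, liver, ovary and testis in the series. The animals were laboratory-reared descendants of wild-caught Mus musculus domesticus, the labels give no age for them, and each +/t female was set against a +/+ female of the same litter, 6 litters in all. The labels name no transgene and no treatment for either group, and each library was made from 1 animal. Male livers (14 libraries), female brains (14) and ovaries (14) of both genotypes are used for the effect of the same genes elsewhere. Differences from female liver were tested against all the male livers, against the brains of 10 of the 12 females and against the ovaries of 10, not the same 10.

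A t haplotype is an alternative version of the centromeric portion of mouse chromosome 17, held together by inversions, which +/t males pass on to most of their offspring because it impairs the sperm that lack it. The drive acts in spermatids, through distorter genes and a responder, so a female carries the variant region without the organ in which it is known to act. The liver is built mostly of hepatocytes, whose metabolic genes are graded between the portal and the central vein, together with sinusoidal endothelial cells, resident macrophages and stellate cells. The t region of chromosome 17 also holds the major histocompatibility complex and several genes of liver metabolism and stress hormone signalling. A liver comparison of +/t with +/+ females therefore shows how total counts per gene differ in carriers outside the germ line. The counts were not split by allele.

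The promoters of 3 of the genes described here are shown because they cover a gene pair that changed together, the stress hormone gene that rose in +/t livers, and the antigen presentation gene that fell. The letters are from RefSeq, build GRCm38.p6, and run 5′ to 3′ from 250 bases before to 50 bases after a start annotated by RefSeq. Gene positions elsewhere in the text are those of GENCODE M21, whose starts can differ. They are those of the reference strain and were not read from these mice. Of the 11 genes that differed, 10 had such a window.
Znrd1as: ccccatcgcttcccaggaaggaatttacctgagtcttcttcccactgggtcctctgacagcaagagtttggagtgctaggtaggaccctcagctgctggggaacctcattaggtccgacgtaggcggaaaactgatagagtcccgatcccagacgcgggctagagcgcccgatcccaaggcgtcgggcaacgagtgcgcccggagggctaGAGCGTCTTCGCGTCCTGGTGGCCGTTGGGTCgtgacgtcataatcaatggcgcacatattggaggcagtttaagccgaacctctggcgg
Fkbp5: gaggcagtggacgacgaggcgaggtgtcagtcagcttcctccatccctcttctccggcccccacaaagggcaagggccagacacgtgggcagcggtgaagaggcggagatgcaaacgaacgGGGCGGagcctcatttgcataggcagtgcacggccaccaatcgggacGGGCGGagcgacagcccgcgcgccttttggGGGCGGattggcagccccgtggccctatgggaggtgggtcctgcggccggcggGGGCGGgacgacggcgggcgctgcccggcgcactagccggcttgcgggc
H2-Eb1: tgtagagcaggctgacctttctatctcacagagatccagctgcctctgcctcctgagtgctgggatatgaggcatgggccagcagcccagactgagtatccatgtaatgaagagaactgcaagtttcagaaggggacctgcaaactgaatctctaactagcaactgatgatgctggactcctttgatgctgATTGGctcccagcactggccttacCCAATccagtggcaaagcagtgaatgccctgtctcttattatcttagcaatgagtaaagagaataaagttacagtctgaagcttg
The Znrd1as window lies at chr17:36958350-36958649 on the plus strand. Its capitals mark the 32 bases between the GENCODE M21 starts of Znrd1 and Znrd1as, which are transcribed in opposite directions. It holds 23 CpG dinucleotides, against a median of 7 over the 32851 windows of the table. The Fkbp5 window lies at chr17:28486100-28486399 on the minus strand. That is inside the GENCODE M21 span of the gene, chr17:28399094-28517527, and not at its outer end, so the window covers 1 start only. Its capitals mark the GC box letters GGGCGG, found at 4 places when both strands were searched. GGGCGG was present in 35.7% of all windows. The steroid receptor motif letters AGAACA, present in 19.0% of all windows, and the palindrome core ACANNNTGT, present in 6.85%, were not found in the Fkbp5 window on either strand. The H2-Eb1 window lies at chr17:34305617-34305916 on the plus strand, and its capitals mark CCAAT read on either strand, found at 2 places. CCAAT was present in 37.4% of all windows, and the H2-Eb1 window holds 0 CpG dinucleotides. These matches describe the letters only.

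The libraries held 11083729 to 14001691 gene counts in +/t females and 11405529 to 14780543 in +/+ females. Between 15193 and 15741 genes had at least 1 count in +/t livers, and between 15452 and 16321 in +/+ livers. The Y-linked gene Ddx3y reached at most 0.237 CPM, the count scaled to library size, in +/t libraries and 0.079 CPM in +/+ libraries, so no library went against its female label. The tissue label held up against its markers, since Alb, which encodes serum albumin, averaged 82861 ± 13836 CPM in +/t livers and 95721 ± 13065 CPM in +/+ livers (SD, n = 6 each). The +/+ library of pair 3 stood apart. Its erythroid genes summed to 1052 CPM, against at most 165 CPM in the other 5 +/+ libraries, and its macrophage and Kupffer cell markers to 731 CPM against at most 450 CPM. Its lymphocyte markers summed to 38.9 CPM, against at most 24.1 CPM in the other 5. In these whole-tissue samples, fewer cells of a type and less RNA per cell cannot be told apart.

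A total of 11 genes differed between +/t and +/+ livers, and all of them lie in the t region, taken here as chromosome 17 from its start to 40 Mb. Rsph3a, Znrd1, Znrd1as, Fkbp5 and Zfp994 rose in +/t livers, and Tulp4, Jmjd8, Amdhd2, Acat3, Rnf39 and H2-Eb1 fell. A gene was called at an adjusted p under 0.05 in the edgeR quasi-likelihood test, which was blocked by sibling pair. The 11 calls were 0.0909% of the 12105 genes tested and 2.94% of the 374 genes tested in the t region. Outside the t region 0 of 11731 genes passed in edgeR, where the smallest adjusted p was 0.165, although 756 of them had an unadjusted p under 0.05. With DESeq2, 37 genes passed, 22 in the t region and 15 outside.

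**Figure D1:**
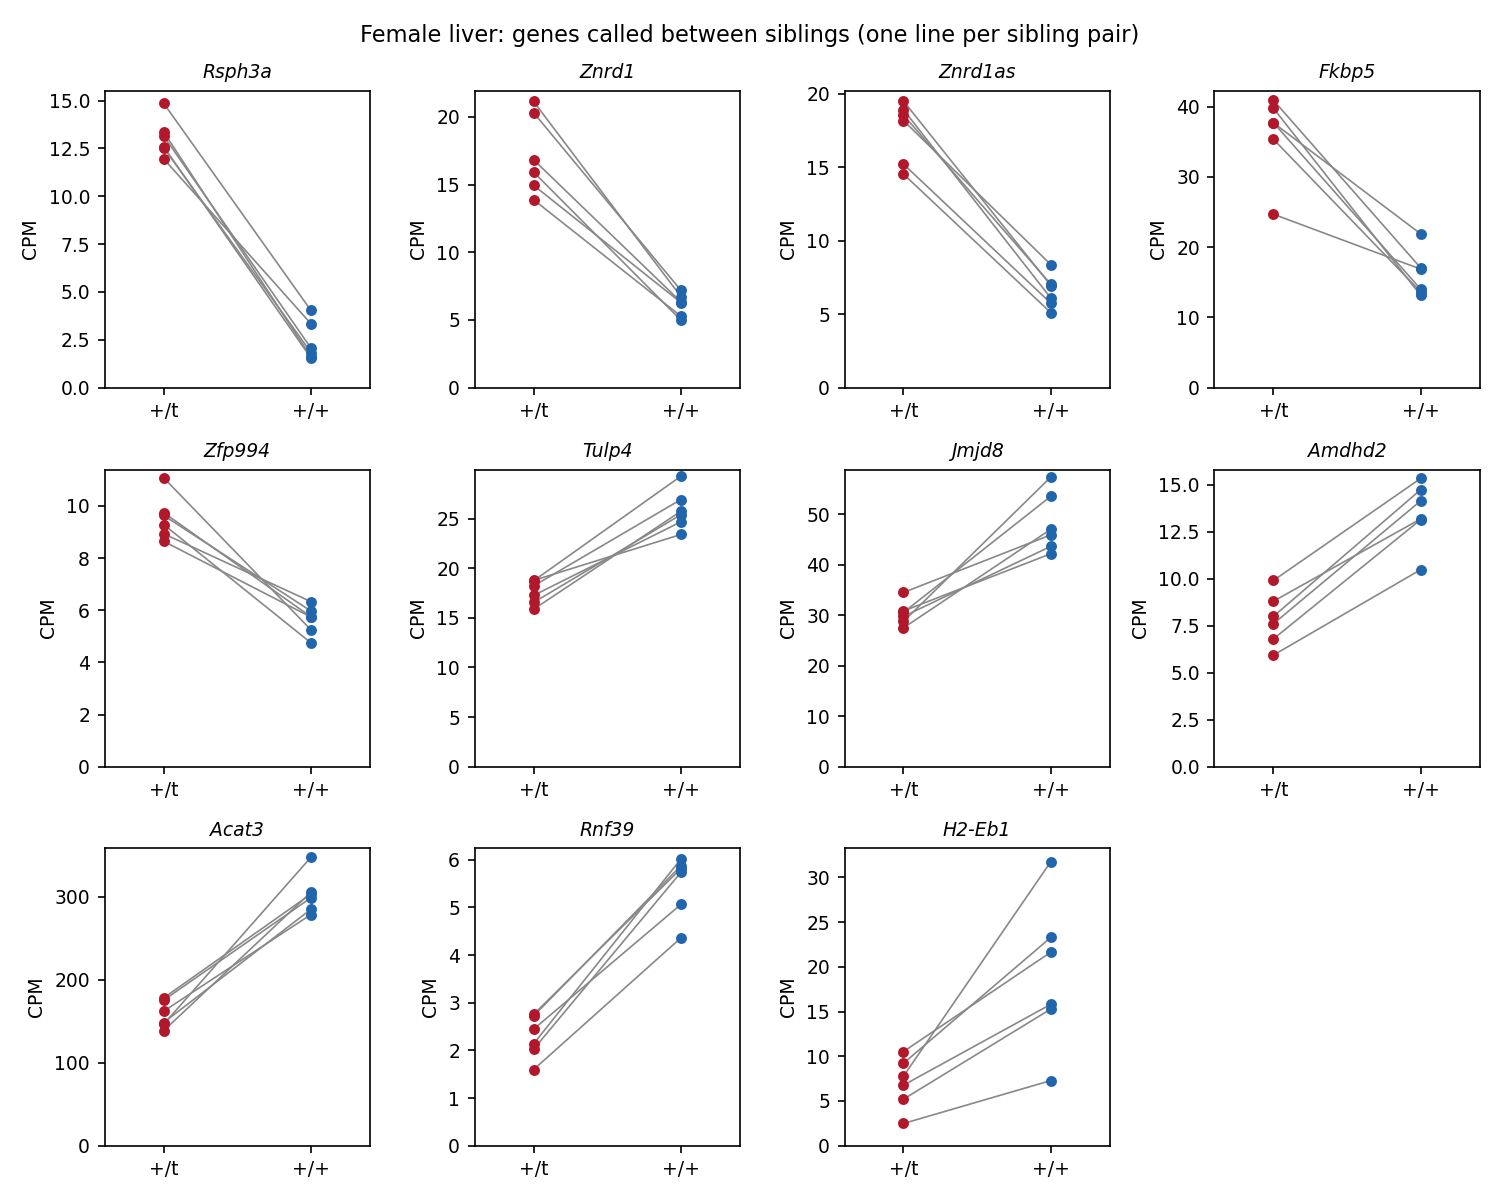
Normalised read count (CPM, y axis, from 0) of the 11 called genes in the livers of +/t females (left, red) and their +/+ sisters (right, blue), 1 line per sibling pair. In all panels except that of H2-Eb1 the lowest value of the higher group lies above the highest value of the lower group, and every line slopes the same way within a panel.

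Rsph3a, which encodes a protein of the radial spokes of motile cilia and flagella, showed the largest difference of the 11. It was measured at 12.6, 14.9, 13.2, 11.97, 13.4 and 12.5 CPM in the +/t livers of pairs 1, 2, 3, 4, 5 and 7, against 1.55, 4.03, 2.06, 3.34, 1.61 and 1.84 CPM in their +/+ sisters. All 6 +/t values lay above all 6 +/+ values, with a spread among +/t livers that was small next to the gap. The log2 fold change was 2.47 ± 0.19 (SE, edgeR adjusted p = 0.000934), higher in 6 of 6 pairs. The gene lies at chr17:7945614-7979824. A second copy, Rsph3b, at chr17:6904413-6948682, matches it over 1823 bases at 99.4% identity, so the authors' counting could have split or lost reads between them. Rsph3b averaged 7.91 ± 1.75 CPM in +/t livers and 4.69 ± 1.77 CPM in +/+ livers (SD, n = 6 each) and was not called by edgeR (log2 fold change 0.79 ± 0.15, edgeR adjusted p = 0.179, DESeq2 adjusted p = 0.0381). The sum of both copies does not depend on how counted reads were shared between them, though it lacks any read left out for matching both. It averaged 20.99 ± 2.5 CPM in +/t livers and 7.09 ± 2.54 CPM in +/+ livers (SD, n = 6 each), higher in 6 of 6 pairs, with a mean log2 difference of 1.63 (two-sided exact permutation over the pairs, p = 0.03125, the smallest that 6 pairs allow). Each copy was itself higher in 6 of 6 pairs, which fixed this p in advance, so it adds no support. Per length, Rsph3a was expressed at 2.57 RPKM (reads scaled to gene length and library size) over all 12 livers, above 38.6% of the genes tested. Of 12 radial spoke genes listed, 4 were expressed enough to be tested in liver, and Rsph3a was the 1 called by edgeR, DESeq2 calling Rsph3b as well.

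Znrd1, the gene of a small zinc ribbon subunit of RNA polymerase I, and its neighbour Znrd1as rose side by side. Znrd1 was measured at 13.9, 21.1, 14.95, 16.8, 15.9 and 20.3 CPM in the +/t livers of pairs 1, 2, 3, 4, 5 and 7, against 5.28, 6.72, 6.28, 6.34, 4.99 and 7.19 CPM in the +/+ livers. Znrd1as was measured at 14.5, 18.9, 15.2, 19.5, 18.2 and 18.5 CPM in the +/t livers, against 5.10, 6.09, 5.75, 6.95, 8.37 and 7.04 CPM in the +/+ livers. For both genes the groups did not overlap, and the pair with the lowest +/t value, pair 1, was the same. The log2 fold changes were 1.48 ± 0.08 for Znrd1 and 1.42 ± 0.09 for Znrd1as (SE, edgeR adjusted p = 0.0002 for each), the smallest adjusted p of the comparison. Znrd1 lies at chr17:36954356-36958559 on the minus strand and Znrd1as at chr17:36958592-36965625 on the plus strand, head to head across the 32 bases in capitals above. The annotation does not make them overlap.

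Genes on either side were not called higher. Rnf39, which encodes a RING finger protein, lies just beyond Ppp1r11 from Znrd1, at chr17:36942918-36947986, and went the other way. It was measured at 2.02, 2.44, 2.14, 1.60, 2.72 and 2.75 CPM in +/t livers, against 5.74, 5.06, 6.01, 4.36, 5.87 and 5.81 CPM in +/+ livers. Every +/t value was below every +/+ value (log2 fold change -1.26 ± 0.13, edgeR adjusted p = 0.00801). Between Rnf39 and Znrd1 lies Ppp1r11, the gene of an inhibitor of protein phosphatase 1, which averaged 23.4 ± 4.8 CPM in +/t livers and 19.8 ± 2.2 CPM in +/+ livers (SD, n = 6 each) and was not called (log2 fold change 0.23 ± 0.11, edgeR adjusted p = 0.762). Trim26, a neighbour on the centromere side, had a log2 fold change of 0.06 ± 0.06 (edgeR adjusted p = 0.905), and Gabbr1, on the telomere side, one of -0.45 ± 0.15 (edgeR adjusted p = 0.627). Of 29 RNA polymerase I and III subunit genes tested, Znrd1 was the 1 called. The 2 largest subunits of RNA polymerase I had log2 fold changes of 0.00 ± 0.06 for Polr1a and 0.05 ± 0.10 for Polr1b.

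Fkbp5 encodes a co-chaperone of Hsp90 that lowers the hormone affinity of the glucocorticoid receptor and is itself a widely used target gene of that receptor. It was measured at 40.9, 39.8, 24.7, 35.4, 37.7 and 37.7 CPM in the +/t livers of pairs 1, 2, 3, 4, 5 and 7, against 17.03, 13.1, 16.9, 13.6, 21.9 and 14 CPM in the +/+ livers. The groups did not overlap, although the +/t liver of pair 3 was well below the other 5. The log2 fold change was 1.17 ± 0.13 (SE, edgeR adjusted p = 0.0137), higher in 6 of 6 pairs. The gene lies at chr17:28399094-28517527. Without pair 1, 4 or 7 the adjusted p passed the threshold no longer, and it remained called without pair 2, 3 or 5.

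Among the 17 tested glucocorticoid-responsive genes, Fkbp5 was the 1 called by edgeR, DESeq2 also calling Sgk1 in the opposite direction, and the median log2 fold change of the list was -0.13, against -0.0013 for all genes tested. Sgk1, the gene of a kinase induced by glucocorticoids, on chromosome 10, was measured at 25.4, 19.8, 23.8, 26.2, 19.9 and 16.4 CPM in +/t livers, against 43.0, 23.7, 35.7, 30.3, 27.5 and 24.6 CPM in +/+ livers. It was lower in each of the 6 +/t livers than in the sister's, but the groups overlapped and it was not called by edgeR (log2 fold change -0.48 ± 0.08, edgeR adjusted p = 0.165, DESeq2 adjusted p = 0.0403). That was the smallest edgeR adjusted p outside the t region. Nr3c1, the gene of the glucocorticoid receptor, averaged 125 ± 16.2 CPM in +/t livers and 137 ± 4.18 CPM in +/+ livers (SD, n = 6 each; log2 fold change -0.14 ± 0.07). Pck1 and Tat, hepatic enzymes induced by glucocorticoids, had log2 fold changes of -0.72 ± 0.57 and -0.26 ± 0.25 with wide spreads between animals. Srpk1, next to Fkbp5 on chromosome 17, was higher in 6 of 6 pairs (36.5 ± 2.8 CPM in +/t livers and 27.3 ± 2.1 CPM in +/+ livers, SD, n = 6 each) and was not called (log2 fold change 0.42 ± 0.08, edgeR adjusted p = 0.185).

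Acat3, the most abundant of the 11, encodes a cytosolic acetyl-CoA acetyltransferase, which joins 2 acetyl-CoA units at the entry to sterol synthesis. Acat3 was measured at 138, 162, 175, 146, 178 and 148 CPM in the +/t livers of pairs 1, 2, 3, 4, 5 and 7, against 305, 278, 299, 347, 303 and 285 CPM in the +/+ livers. The groups were far apart, and no +/t liver reached 200 CPM. The log2 fold change was -0.94 ± 0.08 (SE, edgeR adjusted p = 0.00225), lower in 6 of 6 pairs. Per length, Acat3 was at 94.9 RPKM over the 12 livers, above 96.0% of the genes tested. The gene lies at chr17:12923813-12940600 beside its near copy Acat2, with which it shares 1477 bases at 97.7% identity. Acat2 averaged 81.8 ± 16.7 CPM in +/t livers and 97.2 ± 15.3 CPM in +/+ livers (SD, n = 6 each) and was not called (log2 fold change -0.26 ± 0.09, edgeR adjusted p = 0.634). The sum of the 2 copies averaged 240 ± 21 CPM in +/t livers and 400 ± 28 CPM in +/+ livers (SD, n = 6 each; 400.09 before rounding), lower in 6 of 6 pairs, with a mean log2 difference of -0.74 (two-sided exact permutation over the pairs, p = 0.03125). Acat3, called in these same livers, makes up most of the sum, so this p is no independent support. Acat3 overlaps Tcp1, a chaperonin gene on the opposite strand, over 1255 bases, and Tcp1 had a log2 fold change of 0.11 ± 0.07.

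No other gene of sterol synthesis or among the thiolases was called. Acat3 was the 1 member called of 12 ketone body and acetyl-CoA thiolase genes, whose median log2 fold change was 0.06. The mitochondrial thiolases Acat1 and Acaa2 had log2 fold changes of 0.09 ± 0.07 and 0.08 ± 0.07. Of 23 cholesterol synthesis genes 0 were called by edgeR and 1, Acat2, was lower at an unadjusted p under 0.05. Their median log2 fold change was 0.01.

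Amdhd2 encodes the deacetylase of N-acetylglucosamine-6-phosphate, which returns amino sugars from the hexosamine pathway to glycolysis. It was measured at 8.0, 7.61, 9.91, 5.94, 8.81 and 6.80 CPM in the +/t livers of pairs 1, 2, 3, 4, 5 and 7, against 14.8, 14.2, 15.3, 10.5, 13.2 and 13.2 CPM in the +/+ livers. Pair 4 had the lowest value in each group, and the groups did not overlap (log2 fold change -0.79 ± 0.08, edgeR adjusted p = 0.00801). The calls of Amdhd2 and Rnf39 were lost without pair 1 and without pair 4. Amdhd2 lies at chr17:24155833-24163766. The other 12 tested genes of the hexosamine pathway, none of them called, had log2 fold changes from -0.20 for Renbp to 0.22 for Pgm3. Gnpda1 and Nagk, which act on either side of Amdhd2 in the pathway, were at 0.05 ± 0.08 and 0.09 ± 0.10.

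Jmjd8, which encodes a JmjC domain protein, was measured at 30.5, 28.8, 29.7, 27.5, 30.8 and 34.5 CPM in +/t livers, against 53.5, 57.3, 43.6, 47.0, 42.2 and 45.9 CPM in +/+ livers. The groups did not overlap (log2 fold change -0.67 ± 0.09, edgeR adjusted p = 0.0271), but the Jmjd8 call was lost in 5 of the 6 fits with a pair left out, with edgeR adjusted p from 0.063 to 0.183, and kept without pair 7. The gene lies at chr17:25828867-25831843 and overlaps Stub1, a ubiquitin ligase gene on the opposite strand, over 1339 bases. Stub1 averaged 34.8 ± 3.2 CPM in +/t livers and 35.5 ± 2.7 CPM in +/+ livers (SD, n = 6 each; log2 fold change -0.03 ± 0.05). Without strand information, reads of the shared stretch cannot be told apart. The sum of both genes averaged 65.1 ± 4.1 CPM in +/t livers and 83.8 ± 7.6 CPM in +/+ livers (SD, n = 6 each), lower in 6 of 6 pairs. Jmjd8, called in these same livers, is part of the sum, so its direction is no independent support.

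Tulp4, which encodes a tubby-like protein, was measured at 16.6, 18.8, 17.3, 15.9, 18.7 and 18.2 CPM in +/t livers, against 25.4, 23.4, 24.7, 25.8, 29.3 and 26.9 CPM in +/+ livers. Its difference was the smallest of the 11 and its groups were tight and apart (log2 fold change -0.56 ± 0.07, edgeR adjusted p = 0.0210). The Tulp4 call was also lost in 5 of the 6 such fits, with edgeR adjusted p from 0.0919 to 0.131, and kept without pair 2. Tulp4 lies at chr17:6106437-6251128. Its longest matches are the pseudogenes Gm2792 and Gm2808, each over 3158 bases at 99.7% identity. Neither is among the genes counted, and whether Tulp4 reads were lost to them was not tested. A Tulp4 transcript also matches Fbl, the fibrillarin gene, over 690 bases at 99.6% identity, and Fbl had a log2 fold change of 0.02 ± 0.06. Zfp994, a zinc finger protein gene at chr17:22197265-22225616, was measured at 8.64, 8.93, 9.74, 11.1, 9.29 and 9.63 CPM in +/t livers, against 5.74, 6.33, 5.75, 5.25, 4.75 and 5.97 CPM in +/+ livers. The groups did not overlap (log2 fold change 0.76 ± 0.11, edgeR adjusted p = 0.0486), but its call was the least firm, since it was lost whichever pair was left out, with relative log expression factors and with a minimum count of 50. Of the 11 called genes, 9 had a match of at least 100 bases at 90% identity in another gene, and the Acat3, Rsph3a and Tulp4 matches were among the longest.

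H2-Eb1 encodes the beta chain of the class II histocompatibility molecule E, which presents peptides on antigen-presenting cells. H2-Eb1 was measured at 2.48, 6.77, 7.78, 9.22, 5.20 and 10.5 CPM in the +/t livers of pairs 1, 2, 3, 4, 5 and 7, against 7.28, 15.8, 31.8, 23.3, 15.3 and 21.6 CPM in the +/+ livers. Each +/t liver was below its own sister, but the groups overlapped because pair 1 was low in both animals. The log2 fold change was -1.44 ± 0.13 (SE, edgeR adjusted p = 0.00225), and with no replicate block the adjusted p was 0.269. The call therefore rests on the sibling pairing. The gene lies at chr17:34305867-34316674. Its level was read beside those of other genes made by the same cells, since the +/+ liver of pair 3, with the highest value, was also the library with high macrophage and lymphocyte markers. Without pair 3, H2-Eb1 remained called. The class II alpha and beta chain genes H2-Aa and H2-Ab1 had log2 fold changes of -0.17 ± 0.10 and -0.32 ± 0.11, and the invariant chain gene Cd74 one of -0.30 ± 0.11, with no call among them. The part of cell numbers in the fall of H2-Eb1 was not tested.

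Of the 14 tested genes of class II and antigen processing, H2-Eb1 was the 1 called by edgeR, and DESeq2 called Tap2 as well. Tap2, the gene of a peptide transporter subunit, was higher in 6 of 6 pairs, at 54.0 ± 4.1 CPM in +/t livers and 40.8 ± 6.1 CPM in +/+ livers (SD, n = 6 each), and missed the edgeR threshold (log2 fold change 0.41 ± 0.06, edgeR adjusted p = 0.0872, DESeq2 adjusted p = 0.0257). The class I genes, 15 of them tested and all in the t region, went both ways. At an unadjusted p under 0.05, 5 were higher and 6 lower in +/t livers, which is 73.3% of the list, against 23.8% of the t region genes (89 of 374), and none was called by edgeR. DESeq2 called H2-T10 and H2-Bl higher and H2-T23 lower. H2-Bl was at a higher mean (20.8 ± 2.9 CPM in +/t livers and 13.4 ± 3.5 CPM in +/+ livers, log2 fold change 0.66 ± 0.10, edgeR adjusted p = 0.0872, DESeq2 adjusted p = 0.00302), as was H2-T10 (55.7 ± 11.5 CPM in +/t livers and 33.3 ± 6.5 CPM in +/+ livers, 0.73 ± 0.13, edgeR adjusted p = 0.176, DESeq2 adjusted p = 0.000178). H2-K1, which encodes a classical class I molecule, averaged 305 ± 109 CPM in +/t livers and 634 ± 273 CPM in +/+ livers, lower in 5 of 6 pairs (log2 fold change -0.96 ± 0.28, edgeR adjusted p = 0.556). H2-D1, the other classical gene of this kind in the list, averaged 355 ± 99.9 CPM in +/t livers and 259 ± 91.5 CPM in +/+ livers, higher in 5 of 6 pairs (0.49 ± 0.16, edgeR adjusted p = 0.623). Class I genes resemble one another, so their single values are uncertain. H2-T10 matches H2-T22 over 1703 bases at 96.5% identity, and H2-Bl matches H2-D1 over 999 bases at 90.4%. The class I genes also varied more than others within each group. The median SD of log2 CPM was 0.374 among +/t livers and 0.446 among +/+ livers for class I genes, against 0.198 and 0.183 for all genes tested. The summed class I level was 3878 ± 788 CPM in +/t livers and 3924 ± 1369 CPM in +/+ livers (SD, n = 6 each), higher in 4 of 6 pairs (two-sided exact permutation, p = 0.938).

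**Figure D2:**
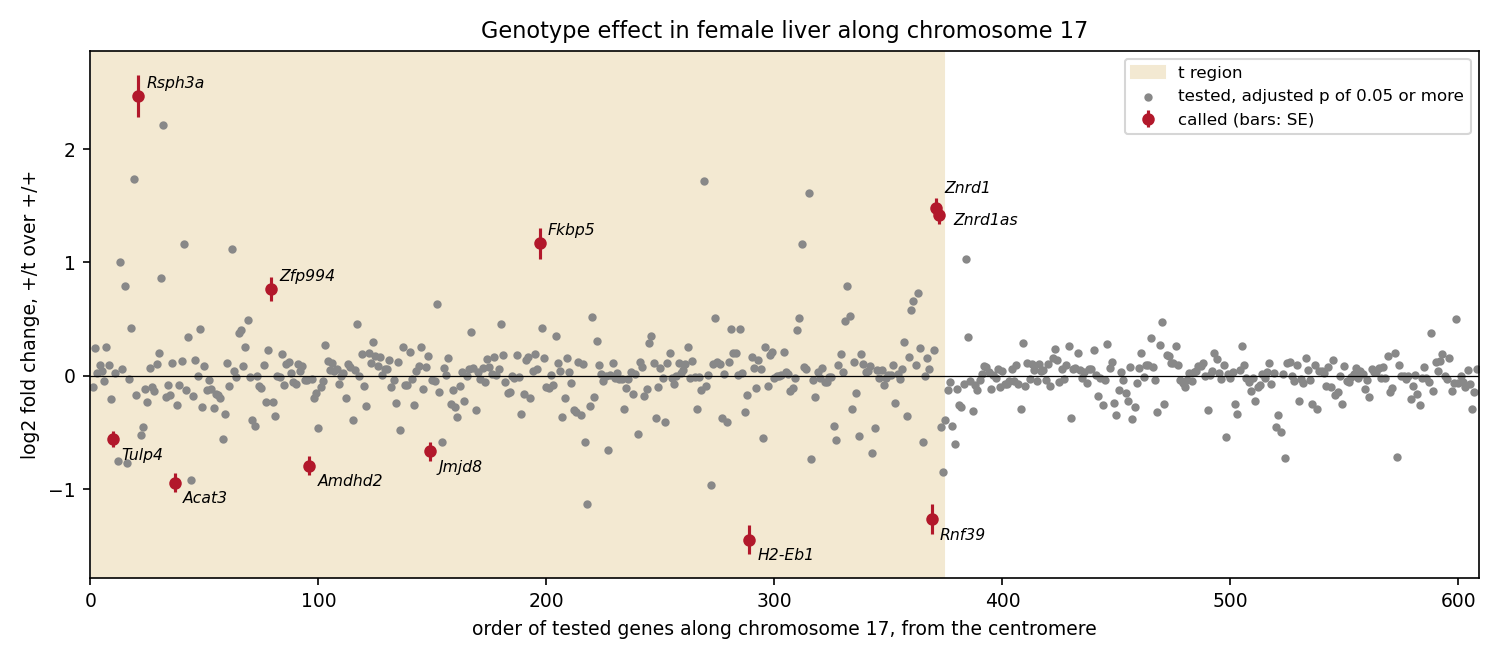
Log2 fold change of +/t over +/+ female livers (y axis) for the 608 tested genes of chromosome 17, in their order along the chromosome from the centromere (x axis). The shaded part is the t region with 374 genes, red points with SE bars are the 11 genes called by edgeR, and beyond the shading edgeR called 0 of 234 genes.

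Beyond the called genes, differences were denser in the t region than elsewhere. At an unadjusted p under 0.05, 89 of its 374 genes differed, against 6.44% of the genes outside it and 6.98% of all genes tested. Of the 89, 40 were higher and 49 lower in +/t livers. The same sign in all 6 pairs was seen for 62 t region genes, 16.6% of those tested, 28 higher and 34 lower, against 4.43% of all genes. Groups that did not overlap were seen for 22 t region genes and for 20 of the 11731 genes outside it. Such genes made up 0.347% of all genes tested. The median absolute log2 fold change was 0.122 in the t region and 0.0773 outside. Changes beyond 2-fold numbered 15 in the t region, 10 of them with the same sign in every pair, against 23 outside, of which 8 had the same sign in every pair.

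Several t region genes with large differences were expressed at low levels. Fndc1, which encodes a fibronectin domain protein, was measured at 2.21, 1.95, 2.82, 1.77, 2.24 and 1.94 CPM in +/t livers, against 0.273, 0.870, 0.628, 0.477, 0.724 and 0.842 CPM in +/+ livers. The groups did not overlap, and it narrowly missed the threshold (log2 fold change 1.74 ± 0.25, edgeR adjusted p = 0.0576), passing it in DESeq2 (adjusted p = 0.00685), in the robust fit, with no filter and with no replicate block. B3galt4, a galactosyltransferase gene of glycolipid synthesis, averaged 1.66 ± 0.40 CPM in +/t livers and 0.507 ± 0.259 CPM in +/+ livers (SD, n = 6 each; log2 fold change 1.72 ± 0.29, edgeR adjusted p = 0.119, DESeq2 adjusted p = 0.0417). Vwa7 averaged 1.89 ± 0.51 CPM in +/t livers and 0.602 ± 0.249 CPM in +/+ livers (log2 fold change 1.62 ± 0.33, edgeR adjusted p = 0.216). Slc22a2, an organic cation transporter gene, averaged 6.30 ± 1.32 CPM in +/t livers and 2.55 ± 4.68 CPM in +/+ livers, where the SD exceeded the mean (log2 fold change 2.21 ± 0.74, edgeR adjusted p = 0.622). These 3 genes were chosen after their values were seen.

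Along the chromosome, genes with an unadjusted p under 0.05 were most frequent between 5 and 15 Mb. They made up 0 of the 3 genes tested in the first 5 Mb, 12 of 23 between 5 and 10 Mb, 9 of 21 between 10 and 15 Mb and 5 of 15 between 15 and 20 Mb. Further on, the counts were 10 of 70 between 20 and 25 Mb, 20 of 82 between 25 and 30 Mb, 16 of 99 between 30 and 35 Mb and 17 of 61 between 35 and 40 Mb. Just past the boundary used here, between 40 and 45 Mb, 5 of 14 genes passed that level, among them Rcan2, which encodes an inhibitor of calcineurin. Rcan2 was higher in 6 of 6 pairs, at 32.9, 33.9, 16.7, 22.9, 18.6 and 18.5 CPM in +/t livers, against 22.6, 6.49, 16.2, 11.2, 6.60 and 10.02 CPM in +/+ livers. Its groups overlapped, pair 3 hardly differed, and it was not called by edgeR (log2 fold change 1.03 ± 0.25, edgeR adjusted p = 0.445, DESeq2 adjusted p = 0.000836). Between 45 and 50 Mb the count was 3 of 62. On other chromosomes the share at that level ran from 4.53% on the X to 12.9% on chromosome 18, leaving out the mitochondrial genome and the Y.

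None of the genes for which the t haplotype is known was called in liver. Of 9 listed distorter and responder genes, 4 were tested. Tagap1, a GTPase-activating protein gene named as a distorter in the mouse, was measured at 3.59, 1.54, 5.38, 4.52, 4.003 and 3.56 CPM in +/t livers, against 7.47, 4.82, 7.90, 5.99, 6.68 and 4.67 CPM in +/+ livers. It was lower in 6 of 6 pairs with overlapping groups and was not called (log2 fold change -0.77 ± 0.17, edgeR adjusted p = 0.342). Tagap, a near copy that matches Tagap1 over 2152 bases at 99.0% identity, had a log2 fold change of -0.17 ± 0.29. The copies were not summed, so how reads were shared between them was not tested. Fgd2 and Nme3, both named as distorters, had log2 fold changes of -0.19 ± 0.23 and 0.06 ± 0.09. Among 13 tested genes named for the t complex or lying in it, Rsph3a was the 1 called higher by edgeR and Acat3 the 1 called lower, and DESeq2 called Rsph3b as well. Plg, the gene of plasminogen and among the most abundant liver transcripts of the region, averaged 3471 ± 350.3 CPM in +/t livers and 3011 ± 258 CPM in +/+ livers (SD, n = 6 each). It was higher in 6 of 6 pairs without a call (log2 fold change 0.20 ± 0.08, edgeR adjusted p = 0.656).

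Outside the t region the listed liver programmes gave no called gene in edgeR, and shifts were read against the shares of all genes, of which 2.96% were higher and 4.02% lower at an unadjusted p under 0.05. Among the periportal genes the fold changes had 1 sign. All 12 tested had a log2 fold change below 0, against 50.5% of all genes, 6 of them were lower at an unadjusted p under 0.05, and the median was -0.24. The list's median was below 0 in each of the 6 pairs, from -0.29 to -0.16. Ass1, the urea cycle enzyme argininosuccinate synthase, was measured at 1581, 1227, 1407, 2019, 1383 and 1446 CPM in +/t livers, against 1807, 1929, 1651, 2176, 1906 and 1532 CPM in +/+ livers. Each +/t liver was below its sister, with overlapping groups (log2 fold change -0.29 ± 0.09, edgeR adjusted p = 0.619). Cps1, the first enzyme of the urea cycle, averaged 4658 ± 1046 CPM in +/t livers and 5669 ± 555 CPM in +/+ livers (SD, n = 6 each), lower in 5 of 6 pairs (-0.31 ± 0.11, edgeR adjusted p = 0.649). Cdh1, the E-cadherin gene, was at -0.28 ± 0.09 and Arg1, arginase, at -0.22 ± 0.08, each lower in 6 of 6 pairs. The 12 pericentral genes, with 0 at that level in either direction, had a median of 0.12. Glul, the glutamine synthetase that marks the cells around the central vein, averaged 956 ± 331 CPM in +/t livers and 797 ± 44.5 CPM in +/+ livers (SD, n = 6 each; log2 fold change 0.20 ± 0.14). The pair medians of the pericentral list ran from -0.25 to 0.56, above 0 in 4 of 6 pairs.

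**Figure D3:**
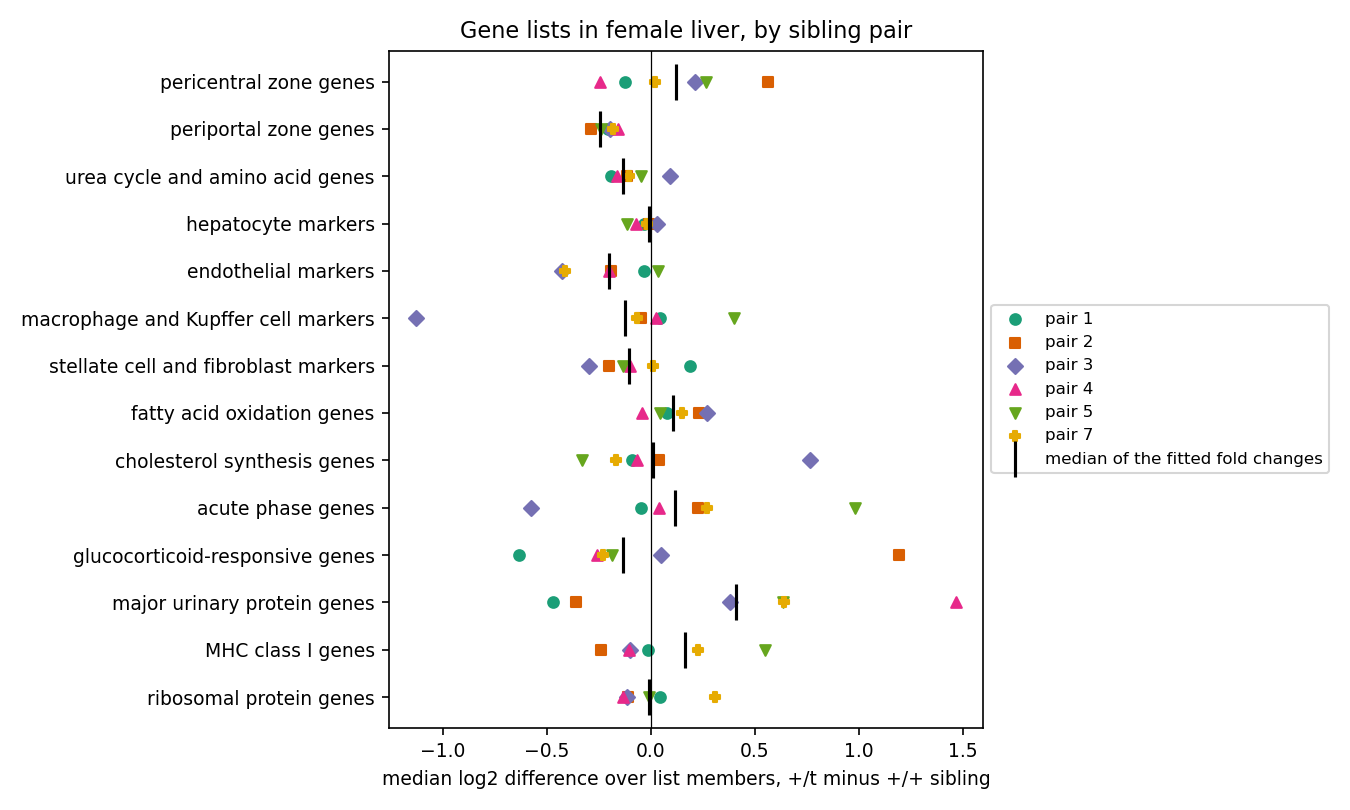
Median over the tested members of each gene list (rows) of the log2 difference between a +/t liver and that of its +/+ sister (x axis), 1 symbol per sibling pair, with a black bar at the median of the fitted log2 fold changes. The periportal list lies below 0 in all 6 pairs, between -0.29 and -0.16, while pair 3 lies far to the left for macrophage and Kupffer cell markers, at -1.13.

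No marker of the liver's endothelium was called. Of 14 tested, 13 had a log2 fold change below 0, against 50.5% of all genes. At an unadjusted p under 0.05, 4 were lower, against 4.02% of all genes, and the median was -0.20. Kdr, the VEGF receptor of endothelial cells, was measured at 61.9, 42.0, 35.5, 61.3, 55.6 and 49.1 CPM in +/t livers, against 63.9, 65.2, 58.7, 70.4, 60.3 and 66.8 CPM in +/+ livers. It was lower in 6 of 6 pairs, by little in pair 1 (log2 fold change -0.36 ± 0.10, edgeR adjusted p = 0.548). Pecam1, an adhesion molecule of endothelial junctions, averaged 17.3 ± 2.9 CPM in +/t livers and 21.6 ± 0.95 CPM in +/+ livers (SD, n = 6 each), lower in 6 of 6 pairs (-0.33 ± 0.08, edgeR adjusted p = 0.508). The summed endothelial markers ran from 498 to 655 CPM in +/t livers and from 620 to 677 CPM in +/+ livers. Without pair 3 the median of the list was -0.12. Macrophage and Kupffer cell markers had a median of -0.12 over 12 genes, none of which reached an unadjusted p under 0.05, and without pair 3 their median was 0.07. Hepatocyte markers had a median of -0.01 over 12 genes, and stellate cell and fibroblast markers one of -0.10. Most markers of cholangiocytes, lymphocytes, exocrine pancreas and adipocytes were too low to be tested.

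No gene of the metabolic and hormone-responsive lists was called by edgeR outside the t region. Of 24 tested genes of fatty acid oxidation, 4 were higher and 1 lower at an unadjusted p under 0.05, with a median of 0.11 and pair medians above 0 in 5 of 6 pairs. Acot2 and Acot1, which encode acyl-CoA thioesterases, had log2 fold changes of 0.54 ± 0.15 and 0.63 ± 0.21 (edgeR adjusted p = 0.548 and 0.623), each higher in 5 of 6 pairs. Major urinary proteins, pheromone carriers made in liver, had a median of 0.41 over 20 genes. Their summed level was 8949, 13261, 14002, 17433, 11772 and 17455 CPM in the +/t livers of pairs 1, 2, 3, 4, 5 and 7, against 11983, 13956, 11108, 7546, 8388 and 9296 CPM in the +/+ livers. The groups overlapped and the sum was higher in 4 of 6 pairs (two-sided exact permutation over the pairs, p = 0.219). Single members were distributed in different ways. Mup1 was at 13.1, 2063, 1437, 14.8, 17.4 and 3110 CPM in +/t livers, against 10.7, 1812, 1331, 4.56, 16.3 and 1046 CPM in +/+ livers. Both sisters were high in pairs 2, 3 and 7 and both were low in pairs 1, 4 and 5. Mup14 was at 316, 205, 2.73, 3.19, 416 and 14.7 CPM in +/t livers, against 373, 297, 166, 347, 447 and 157 CPM in +/+ livers. Its 3 low values were all in +/t livers, those of pairs 3, 4 and 7. Mup14 matches Mup1 over 925 bases and Mup12 over 926 bases, each at 99.2% identity. Single Mup values are therefore uncertain, and how reads were shared among the copies was not tested. Of 25 female-biased liver genes edgeR called 0 and DESeq2 called 2, Fmo2 and Acot3, both higher in +/t livers. Among all 12105 genes tested, DESeq2 called 37. The female-biased list had a median log2 fold change of 0.06, with 18 genes above 0 and 7 below. Of 23 male-biased genes 0 were called by either tool and 0 reached an unadjusted p under 0.05. Their median was 0.18, with 18 genes above 0 and 5 below. Fmo2, a flavin monooxygenase with female-biased expression in mouse liver, had groups that did not overlap, though by a narrow margin. Fmo2 was measured at 42.4, 58.5, 41.3, 60.3, 45.8 and 55.9 CPM in +/t livers, against 35.1, 30.1, 14.3, 41.1, 35.2 and 29.99 CPM in +/+ livers (log2 fold change 0.75 ± 0.15, edgeR adjusted p = 0.185, DESeq2 adjusted p = 0.00025). The complement, interferon-stimulated, acute phase and fatty acid synthesis lists had 0 genes at an unadjusted p under 0.05 among 15, 19, 19 and 18 tested.

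Further genes outside the t region were named for the largest changes that kept their sign in 6 of 6 pairs. The 5 highest were mt-Co2, Rcan2, Acot3, Adrb3 and Pdilt, with log2 fold changes from 1.17 to 0.81, and the 5 lowest were Mup14, Atp6v0d2, Soga1, Lilr4b and Igfbp2, from -2.40 to -0.71. None passed in edgeR, where the smallest adjusted p among them was that of Soga1, at 0.176, and DESeq2 called 4 of them, Rcan2, Acot3 (adjusted p = 0.000547), Adrb3 (adjusted p = 0.0244) and Igfbp2. The mt-Co2 value depends heavily on the +/t liver of pair 7, at 202 CPM against 4.25 to 19.7 CPM in the other +/t livers and 2.79 to 16.2 CPM in the +/+ livers. Without pair 7 its log2 fold change was 0.59, against 1.17 with it. The gene also matches the pseudogene Gm28661, which is not among the genes counted, over 681 bases at 100% identity. Whether mt-Co2 reads were lost to that copy was not tested. For Mup14, the limit of near copies given above applies. Igfbp2, an insulin-like growth factor binding protein made in liver, was measured at 70.7, 86.3, 67.0, 34.0, 102 and 46.1 CPM in +/t livers, against 150, 107, 100, 47.4, 122 and 135 CPM in +/+ livers. Pair 4 was low in both animals, and Igfbp2 missed the edgeR threshold (log2 fold change -0.71 ± 0.16, edgeR adjusted p = 0.368) and passed it in DESeq2 (adjusted p = 0.00136).

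Female livers were next set against male livers. The test of the genotype effect in female minus male liver called 0 genes of 12451 (0.0%) in edgeR, with 629 at an unadjusted p under 0.05 and 1 call in DESeq2. Simulated 1.5-fold differences of this kind were called by edgeR in 29% of cases, so most differences of that size, and smaller ones, could be missed. All 11 genes called in female liver had the same sign in male liver, of which 6, Rsph3a, Acat3, Amdhd2, Jmjd8, Znrd1 and Znrd1as, were called there too. Fkbp5 averaged 25.5 ± 20.4 CPM in +/t male livers and 9.81 ± 3.29 CPM in +/+ male livers (SD, n = 7 each; log2 fold change 1.09 ± 0.30, edgeR adjusted p = 0.497), with a far wider spread than in females. H2-Eb1 and Rnf39 were at -1.02 ± 0.17 and -0.87 ± 0.14 in male liver (edgeR adjusted p = 0.0581 for each). The differences with the smallest p among the called genes were those of Znrd1, 0.47 ± 0.13 higher in female than male liver on the log2 scale (edgeR adjusted p = 0.858), and of Tulp4, -0.32 ± 0.10 (edgeR adjusted p = 0.893).

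**Figure D4:**
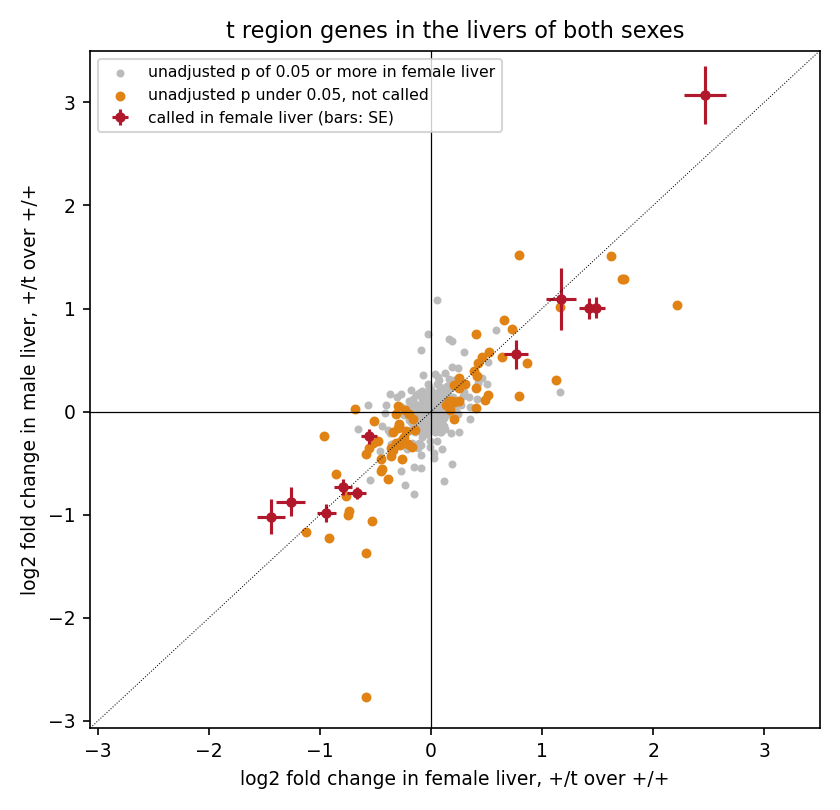
Log2 fold change of +/t over +/+ in female liver (x axis) against that in male liver (y axis) for the 367 t region genes tested in both, with the line of equal change dotted. Red points with SE bars are the 11 genes called in female liver, all of them on the same side of 0 on both axes, and orange points the other genes with an unadjusted p under 0.05 in female liver.

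Of the 88 t region genes with an unadjusted p under 0.05 in female liver that were also tested in male liver, 84 (95.5%) had the same sign there. For all t region genes tested in both the share was 69.5% (255 of 367). Outside the t region it was 51.7% (377 of 729) for genes at that level and 51.0% (5844 of 11465) for all. The 2 livers share no library, although 4 of the 6 female pairs came from a litter that also gave a male pair. The labels of male pair 3 conflict between titles and genotype. With its genotype labels as given, its siblings differed in the female direction for all 11 genes, and without that pair 84 of 88 genes had the same sign. Without male pair 4, whose +/t library had even numbers in 68.0% of its gene counts from 20 to 500, the number was 82 of 88. In the female liver libraries that share ran from 48.7% to 50.7%.

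The 3 genes nearest to a sex difference were Flt4, Kdr and Epg5, none in the t region. Flt4, the VEGF receptor of lymphatic and sinusoidal endothelium, was measured at 28.1, 17.3, 13.8, 21.2, 20.01 and 18.1 CPM in +/t female livers, against 27.5, 21.4, 21.5, 27.9, 27.4 and 25.1 CPM in +/+ female livers. In male livers it averaged 24.4 ± 3.1 CPM in +/t and 18.6 ± 2.2 CPM in +/+ (SD, n = 7 each). Its log2 fold change was -0.37 ± 0.09 in females and 0.39 ± 0.08 in males, and their difference, -0.76 ± 0.12, was not called by edgeR (adjusted p = 0.189) and passed in DESeq2 (adjusted p = 0.00807). Kdr, described above, was at -0.36 ± 0.10 in females and 0.23 ± 0.06 in males (difference -0.59 ± 0.12, edgeR adjusted p = 0.828). Epg5, an autophagy gene, was at -0.20 ± 0.06 in females and 0.24 ± 0.08 in males (difference -0.44 ± 0.09, edgeR adjusted p = 0.858).

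The same females' brains and ovaries showed which liver differences were also seen elsewhere in the body. Liver was compared with brain in pairs 2, 3, 4, 5 and 7 and with ovary in pairs 1 to 5, with the animal as a block. The genotype effect differed between liver and brain for 3 of 15687 genes (0.0191%), namely Fkbp5, Fndc1 and Rnpepl1, and between liver and ovary for 4 of 15786 genes (0.0253%), namely Rnpepl1, Rnf39, Acat3 and Smoc2. Simulated 1.5-fold differences were called by edgeR in 10% and 6.5% of cases, so these tests find only large ones.

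The genotype effect on Fkbp5 differed between liver and brain. In brain Fkbp5 averaged 28.5 ± 4.1 CPM in +/t and 29.2 ± 3.5 CPM in +/+ females (SD, n = 7 each; log2 fold change -0.04 ± 0.08). The effect in liver minus that in brain was 1.13 ± 0.14 on the log2 scale (edgeR adjusted p = 0.00594). In ovary, where it averaged 398 ± 209 CPM in +/t and 463 ± 238 CPM in +/+ females (SD, n = 7 each), the spread was wide and the difference of effects, 1.18 ± 0.50, was not called (edgeR adjusted p = 1.0). Fndc1 was higher in +/t livers, as given above, and averaged 6.47 ± 1.15 CPM in +/t and 9.32 ± 2.15 CPM in +/+ brains (difference of effects, liver minus brain, 2.20 ± 0.30, edgeR adjusted p = 0.0105).

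The effects on Acat3 and Rnf39, both lower in +/t livers, differed between liver and ovary, where their means were higher in +/t females. In ovary Acat3 averaged 3.87 ± 0.998 CPM in +/t and 1.48 ± 0.68 CPM in +/+ females (SD, n = 7 each; log2 fold change 1.43 ± 0.25, edgeR adjusted p = 0.161), a small fraction of its liver level. The effect in liver minus that in ovary was -2.28 ± 0.29 (edgeR adjusted p = 0.0145). Acat3 was not summed with its near copy Acat2 in ovary, so a different sharing of reads between them there was not tested. Rnf39 averaged 2.33 ± 0.94 CPM in +/t and 1.27 ± 0.30 CPM in +/+ ovaries (log2 fold change 0.82 ± 0.25, not called), and its difference of effects was -2.51 ± 0.27 (edgeR adjusted p = 0.00431). Rnpepl1 lies on chromosome 1 and encodes an arginyl aminopeptidase-like protein. It was measured at 92.2, 103, 109, 79.6, 95.3 and 98.0 CPM in +/t livers, against 73.0, 70.4, 82.3, 74.6, 66.0 and 78.4 CPM in +/+ livers, higher in 6 of 6 pairs with slightly overlapping groups (log2 fold change 0.37 ± 0.07, edgeR adjusted p = 0.176, DESeq2 adjusted p = 0.0417). Rnpepl1 was called higher in +/t animals in male liver, brain and ovary, each fitted alone. In male liver it averaged 84.3 ± 5.9 CPM in +/t and 64.5 ± 6.3 CPM in +/+ (log2 fold change 0.39 ± 0.05, edgeR adjusted p = 0.0206). In brain it averaged 86.9 ± 11.02 CPM in +/t and 32.0 ± 2.6 CPM in +/+ females (log2 fold change 1.44 ± 0.07, edgeR adjusted p = 6.75e-07). In ovary it averaged 185 ± 14.4 CPM in +/t and 73.1 ± 9.2 CPM in +/+ females (1.34 ± 0.09, edgeR adjusted p = 0.000476, SD, n = 7 each in all 3). The effect in liver minus that in brain was -1.10 ± 0.14 (edgeR adjusted p = 0.00594), and the effect in liver minus that in ovary was -1.02 ± 0.09 (edgeR adjusted p = 0.000966). Smoc2, a t region gene of the extracellular matrix named after its values were seen, averaged 1.35 ± 0.46 CPM in +/t livers and 2.52 ± 0.66 CPM in +/+ livers (SD, n = 6 each; log2 fold change -0.92 ± 0.19, edgeR adjusted p = 0.218). In ovary it averaged 555 ± 132 CPM in +/t and 350.5 ± 87.7 CPM in +/+ females (SD, n = 7 each; 0.67 ± 0.12), and the effect in liver minus that in ovary was -1.56 ± 0.22 (edgeR adjusted p = 0.0300). Without pair 4, whose +/+ brain library had 66.9% even counts, the differences from brain were 1.08 ± 0.16 for Fkbp5 and 2.0 ± 0.29 for Fndc1 (edgeR adjusted p = 0.0537 for each), and -1.01 ± 0.13 for Rnpepl1 (edgeR adjusted p = 0.0451). Without pair 5, whose +/t ovary library had 62.1% even counts, the differences from ovary were -2.55 ± 0.27 for Acat3 (edgeR adjusted p = 0.0154) and -2.52 ± 0.33 for Rnf39 (edgeR adjusted p = 0.0604). With each of the 5 pairs left out in turn, Rnpepl1 was called against ovary in 5 fits and against brain in 3, Fkbp5 and Rnf39 in 2, and Acat3, Fndc1 and Smoc2 in 1.

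**Figure D5:**
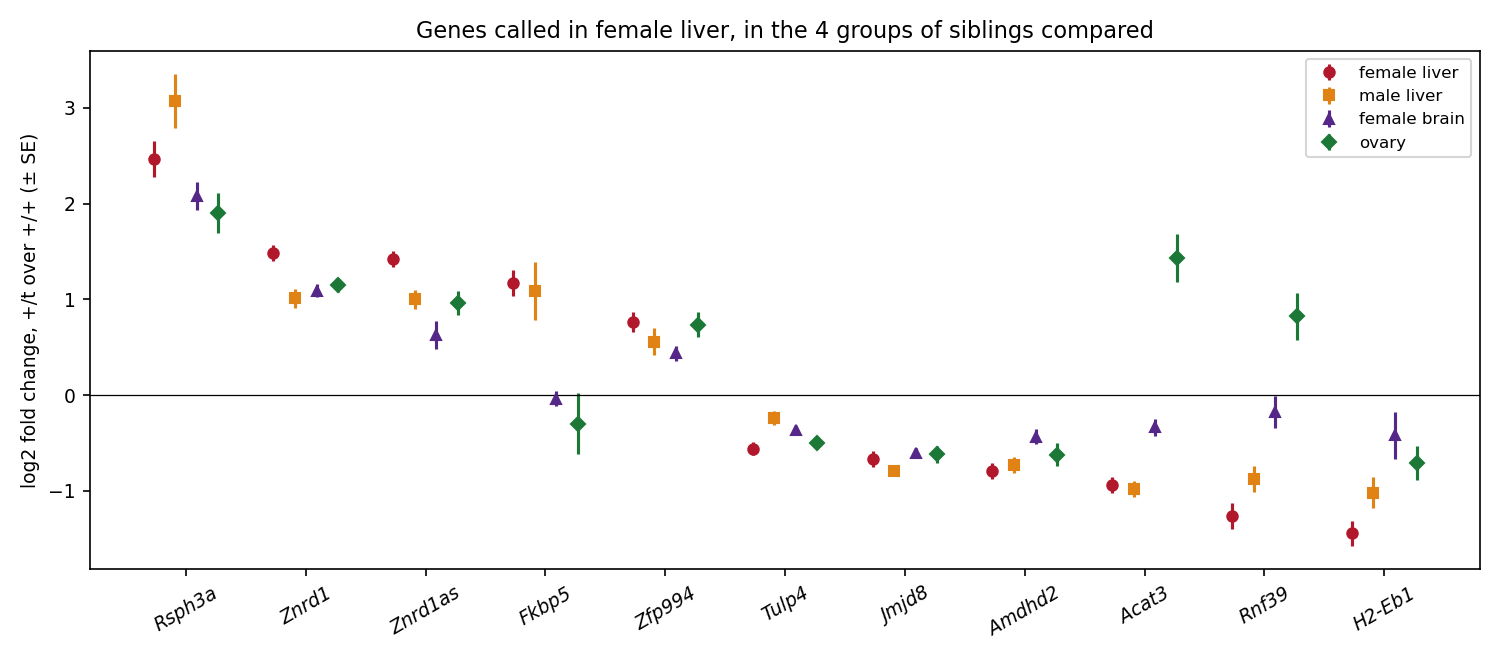
Log2 fold change of +/t over +/+ siblings (y axis, points with SE bars) for the 11 genes called in female liver (x axis), in female liver (6 pairs), male liver (7 pairs), female brain (7 pairs) and ovary (7 pairs). All except Fkbp5, Acat3 and Rnf39 lie on the same side of 0 in all 4, Fkbp5 lies near 0 in brain and below 0 in ovary, and Acat3 and Rnf39 lie above 0 in ovary.

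The other 8 called genes had the same sign in all 3 female tissues. Rsph3a was at 2.08 ± 0.14 in brain and 1.90 ± 0.21 in ovary on the log2 fold scale, Znrd1 at 1.09 ± 0.07 and 1.15 ± 0.06, and Jmjd8 at -0.60 ± 0.05 and -0.62 ± 0.09, each called in all 3. Znrd1as was at 0.63 ± 0.14 in brain and 0.96 ± 0.13 in ovary, the second of these called, although not without pair 5 (edgeR adjusted p = 0.0697). Tulp4 was called in both, at -0.37 ± 0.04 in brain and -0.49 ± 0.07 in ovary, the ovary call being lost without pair 5 (edgeR adjusted p = 0.136). Amdhd2, at -0.43 ± 0.07 in brain and -0.62 ± 0.12 in ovary, and Zfp994, at 0.44 ± 0.08 and 0.74 ± 0.13, were called in brain. Without pair 6, whose +/t brain library had 68.1% even counts, neither brain call passed in edgeR (adjusted p = 0.149 for Amdhd2 and 0.262 for Zfp994), and without pair 4 that of Zfp994 did not either (adjusted p = 0.204). Without pair 5 the ovary effect of Zfp994 was called in edgeR (adjusted p = 0.0405). H2-Eb1 was at -0.42 ± 0.25 in brain, where it was expressed below 1 CPM in both genotypes on average, and at -0.71 ± 0.18 in ovary, without a call in either.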

How the data were processed

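RNA-seq of 12 female livers gave the values here, with 14 male livers, 14 female brains and 14 ovaries for the effects elsewhere, of which the brains and ovaries of 10 shared females each entered the tests of a difference. The deposited values are whole-number read counts per gene, which the authors made, per the submitters' processing notes, by aligning reads to GRCm38 with STAR 2.5.1b and counting with featureCounts. Per the labels' protocols, Trizol, a column kit and a DNase step gave the liver RNA, and a stranded mRNA kit the libraries. The sources used here give neither the strand setting nor the annotation release. Reads of both haplotypes were aligned to 1 reference genome, and how alignment differed between them was not measured.

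Each table held 25567 genes, of which 95, with 0.0317% to 0.0378% of the counts, had no position in GENCODE M21. Positions, overlaps and transcripts came from GENCODE M21 and promoter windows from RefSeq. The filter was filterByExpr at its minimum count of 10. Counts were scaled with TMM factors and tested with the edgeR 4.0.16 quasi-likelihood test in R 4.3.3, with Benjamini-Hochberg adjustment over all genes tested and calls under 0.05. The main comparison has the sibling pair as a block. The biological coefficient of variation was 15.0% and the fit had 5 residual degrees of freedom. The labels name the siblings, which share a litter, and deviations of sisters from their group means correlated at 0.253, 0.200, 0.178, 0.303, 0.0820 and 0.346 in pairs 1, 2, 3, 4, 5 and 7. The sister's was the highest correlation for 4 of the 6, while pairs 2 and 5 correlated more with another pair (0.285 and 0.218). Differences of the genotype effect were tested as interaction terms, female minus male liver with the pair as a block and liver minus brain or ovary with the animal as a block. The effects in male liver, brain and ovary were also fitted alone. The SE of a fold change was taken as its size divided by the root of F. Sums of copies were compared with exact permutation tests over pairs, two-sided. Transcripts were compared with blastn 2.17.0.

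The alternatives were DESeq2 1.42.0, relative log expression factors, a minimum count of 50, no filter, no replicate block, each pair left out and t region ends at 35 and 45 Mb. A robust spread estimate and the fits without male pair 3 or 4, brain pair 4 or 6 and ovary pair 5 were chosen after seeing the data. Tested on simulated data, edgeR called 60.5% of 1.5-fold changes in female liver and DESeq2 66%. The genes described are those called, the 5 highest and 5 lowest fold changes outside the t region among genes averaging 1 or more on the log2 CPM scale with 1 sign in 6 pairs, the 2 smallest p of each list, all tested distorter genes, and the 3 smallest p of each difference test. Further genes are named as partners or list members. The lists and the comparison were chosen with earlier results of these data known.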

Additional observations from a re-analysis of the deposited data

Results flagged for a closer look

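Values far from the other 5 of their group were looked for in 182 groups of 6 livers, the 91 named genes in each genotype, with Dixon's criterion on log2 CPM. It marked 13, and chance marks about 1 in 20. In +/t livers these were Fkbp5 in pair 3 (24.7 CPM, next 35.4), Fabp4 in pair 7 (2.27 CPM, next 4.61), Glul in pair 2 (1613 CPM, next 895), Tagap1 in pair 2 (1.54 CPM, next 3.56), H2-Bl in pair 2 (15.6 CPM, next 20.2) and Bhlhe40 in pair 7 (122 CPM, next 77.0). In +/+ livers they were Igfbp2 in pair 4 (47.4 CPM, next 100.09), Ptprc in pair 3 (25.9 CPM, next 14.4), Hbb-bt in pair 3 (116 CPM, next 17), Egr1 in pair 4 (16.0 CPM, next 36.0), Cyp3a44 in pair 5 (828 CPM, next 942), Fmo2 in pair 3 (14.3 CPM, next 29.99) and Jak2 in pair 7 (26.2 CPM, next 21.99). The +/+ liver of pair 3, whose erythroid and macrophage markers were high, accounts for 3 of them. Their cause was not tested.

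Also flagged were the 7 genotype effects, already given above, that differed between liver and another tissue of the same females in edgeR. Liver minus brain, the log2 differences were 1.13 ± 0.14 for Fkbp5 (adjusted p = 0.00594), 2.20 ± 0.30 for Fndc1 (adjusted p = 0.0105) and -1.10 ± 0.14 for Rnpepl1 (adjusted p = 0.00594). Liver minus ovary, they were -2.51 ± 0.27 for Rnf39 (adjusted p = 0.00431), -2.28 ± 0.29 for Acat3 (adjusted p = 0.0145), -1.02 ± 0.09 for Rnpepl1 (adjusted p = 0.000966) and -1.56 ± 0.22 for Smoc2 (adjusted p = 0.0300). Smoc2, named after its values were seen, is a t region gene of the extracellular matrix.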

How the results depend on the processing

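All 11 calls in female liver were made by DESeq2, the robust fit and the fit with no filter. DESeq2 called 37 genes, 22 in the t region and 15 outside, and no filter on low counts called 16, 1 of them outside. With no replicate block, that is without the sibling pairing, 17 were called, 10 of the 11 and all 17 in the t region, the exception being H2-Eb1 (edgeR adjusted p = 0.269). With a pair left out the calls ran from 5 to 10 in all, 5 to 9 in the t region and 0 to 1 outside, with 5 without pair 1, 5 without pair 4 and the 1 outside, Col14a1, without pair 7. Rsph3a, Acat3, H2-Eb1, Znrd1 and Znrd1as were called in all 6 such fits, Amdhd2 and Rnf39 in 4, Fkbp5 in 3, Tulp4 and Jmjd8 in 1 and Zfp994 in 0. With the t region ended at 35 Mb, 3 calls lay outside it.

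The sex difference had 1 call in DESeq2 and 0 to 1 with a female pair left out (Flt4 without pair 1), and 0 without male pair 3 or 4 or with the labels of male pair 3 exchanged. Liver minus brain had 9 in DESeq2, 5 with no replicate block and 0 to 4 with a pair left out, 0 without pair 2 or 7 and 1 without pair 4. Liver minus ovary had 12 in DESeq2, 2 with the pair within tissue as replicate block and 1 to 7 with a pair left out, 1 without pair 1 or 4, 2 without pair 3 and 7 without pair 2.

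Of the genes described, 5 with no call and a log2 fold change near 0 turned direction in edgeR. With a pair left out, Alas2 ran from -0.271 to 0.0808 (positive without pair 3), Hbb-bt from -0.344 to 0.301 (positive without pair 3), Cela1 from -0.411 to 0.154 (positive without pair 1, 2 or 3), Fabp4 from -0.373 to 0.0077 (positive without pair 7) and Tagap from -0.395 to 0.0425 (positive without pair 2 or 4). Cela1 was also at 0.0545 with no replicate block. The cause was not tested. With 11083729 to 14780543 counts per library, genes near 1 CPM rest on few reads.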
